A study of Homo sapiens with 4 samples.

Results

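Proteasome subunit genes were examined in H3K9la ChIP-seq data from KYSE30, an established oesophageal squamous cell carcinoma line. H3K9la is histone H3 lactylated at lysine 9. Members were the RefSeq GRCh38 protein-coding genes whose symbol is PSMA, PSMB, PSMC, PSMD, PSME or PSMG followed by a number, and 47 of the 19970 protein-coding genes on the autosomes and the X chromosome met this rule. They comprise 19 core particle genes, 20 regulatory particle genes, 4 activator genes and 4 chaperone genes. There are 4 samples: 2 arms, called sg3 and V2 in the labels, each gave 1 library precipitated with an H3K9la antibody and 1 library of input chromatin. The labels give no further genotype or treatment for either arm, so these names are kept as they stand. The series title presents SIRT3, a sirtuin, as an enzyme that removes this mark, and the labels do not say how either arm relates to it. Cultured cells were fixed with formaldehyde and their chromatin was sonicated before immunoprecipitation. Each arm has 1 deposited peak list and no replicate, so every difference compares 2 libraries and carries no p-value.

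The proteasome is the cell's main protease for proteins tagged with ubiquitin. Its barrel-shaped core is built from rings of alpha subunits, which gate the entrance, and rings of beta subunits, some of which cut peptide bonds. A regulatory particle docks on the core: its base unfolds substrates with a ring of ATPases, and its lid removes ubiquitin. Other caps (the PSME activators) open the core in other settings, and dedicated chaperones assemble the parts. Cells under interferon exchange the standard catalytic subunits for immunoproteasome subunits. Histone lactylation is a lysine modification fed by lactate, and related marks on this residue are found at active promoters.

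The sg3 list held 56875 records (called peaks) and the V2 list held 40332. GEO attaches the V2 list to the input sample of that arm. The lists do not state how many reads lie behind them, so the arm, the depth and the yield of the immunoprecipitation cannot be told apart in any difference between them. A gene was counted as marked where any part of a record came within 1 kb of an end of the gene. As a check of the labelled cell type, 12 of 12 squamous marker genes were marked in sg3 and 10 in V2, TP63 and KRT5 being the others. Of 11 markers of other cells, 2 were marked in sg3 (CD3D and CDH5) and 1 in V2 (CD3D).

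Most proteasome genes carried an H3K9la record in sg3, and fewer did in V2. In sg3 40 of 47 members were marked, which is 85.1% (exact Clopper-Pearson 95% interval 71.7 to 93.8%), where 47.2% of all protein-coding genes were. In V2 19 of 47 were marked, which is 40.4% (26.4 to 55.7%), where 28.7% of all protein-coding genes were. These intervals cover counting error only. All 19 V2-marked members were also marked in sg3, 21 were marked in sg3 alone and 0 in V2 alone. Among all protein-coding genes 28.2% were marked in both, 0.501% only in V2 and 18.9% only in sg3, while 52.3% had no record in either.

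Ribosomal protein genes, another large family of widely expressed genes, were counted the same way. In sg3 84.7% of 85 cytosolic and 64.9% of 77 mitochondrial ribosomal protein genes were marked. In V2 the shares were 51.8% and 29.9%. Among the 40 marked members 52.5% (36.1 to 68.5%) were in sg3 alone, against 39.7% of all marked protein-coding genes, 39.7% of marked cytosolic and 54.0% of marked mitochondrial ribosomal protein genes. The interval for the members contains all 3 of these values, so the portion in sg3 alone could not be told from them at this number of genes.

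**Figure D1:**
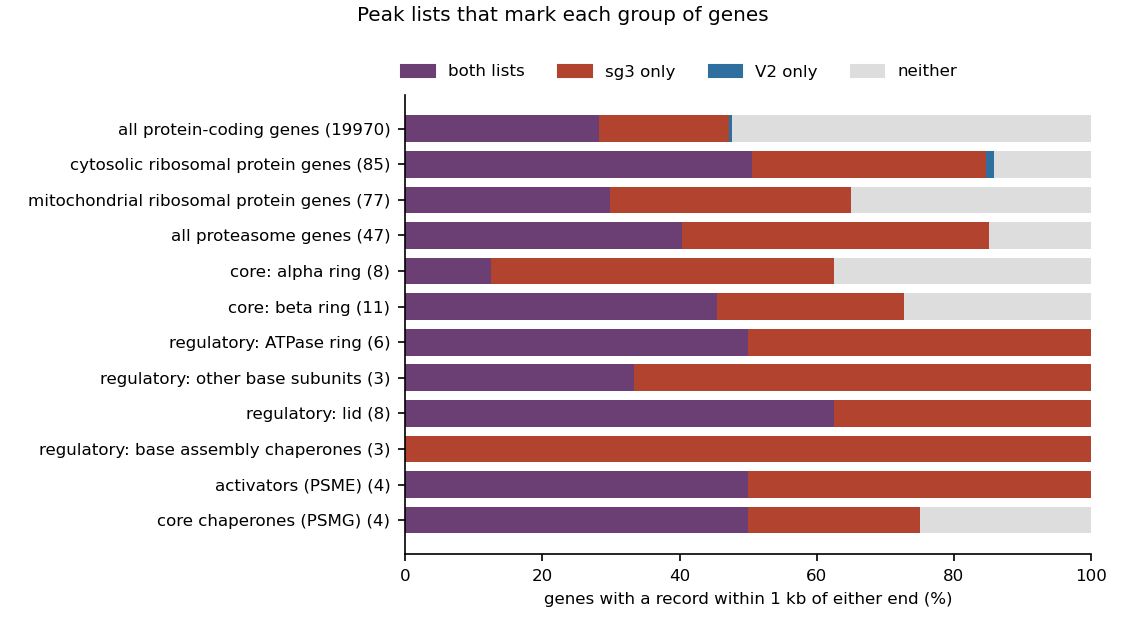
Horizontal bars give the percentage of genes in each group with an H3K9la record within 1 kb of either end in both lists, in sg3 only, in V2 only or in neither; the number of genes is in parentheses. All 20 regulatory particle genes were marked in sg3, and the alpha ring had 1 of 8 genes marked in V2.

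The alpha ring stood lowest in V2 among the structural classes, with 1 of 8 genes marked there and 5 of 8 in sg3. The V2 share was 12.5% (interval 0.316 to 52.7%) against 28.7% of all protein-coding genes. In sg3 it was 62.5% (24.5 to 91.5%) against 47.2%. Both intervals contain the value over all genes. Fold enrichment below is the authors' ratio of ChIP to background at the top of a record. It ranks records within 1 list and is not compared between lists. The -log10 q is the authors' adjusted significance of the record against background, and a member's strongest record is the one with the highest -log10 q. PSMA2 (sg3 fold enrichment 8.95, -log10 q 32.8), PSMA3 (8.62, 23.9), PSMA4 (7.73, 39.7) and PSMA5 (5.42, 19.8) were marked in sg3 alone. PSMA4 ranked higher than 78.0% of all gene-end sg3 records by -log10 q, and its nearest V2 record lay 101636 bases from an end. For PSMA2 that distance was 654883 bases. Only PSMA7 had records in both lists, at its higher-coordinate end on chromosome 20. Its sg3 records ran from 62142552 to 62143777 (fold enrichment 5.08) and from 62144096 to 62144503 (4.13). The V2 records ran from 62142615 to 62143263 (3.57) and from 62143453 to 62144453 (4.29). The first sg3 record and the second V2 record also cover the end of SS18L1, 375 bases away.

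PSMA1 and PSMA6 had no record at an annotated gene end, but both were marked at an internal start. The gene table spans every RefSeq transcript, and the promoter table places the start of PSMA6 13759 bases inside the gene. PSMA1 is on the minus strand, and its table start lies 15510 bases from the lower-coordinate end, where the gene finishes. The end where PSMA1 begins is farther from that start. At that start PSMA1 had an sg3 record on chromosome 11 from 14519617 to 14520362 (fold enrichment 8.48, -log10 q 40.0), and PSMA6 had one on chromosome 14 from 35292435 to 35292997 (9.79, 40.3). Neither had a V2 record within 1 kb of a start. The chaperone gene PSMG4 was alike, with an sg3 record from 3259144 to 3259556 on chromosome 6 (4.55) at a start 4543 bases inside the gene. Counting ends and table starts together, 43 of 47 members (91.5%) were marked in sg3 and 19 (40.4%) in V2, where 49.6% and 30.7% of all protein-coding genes were. In the alpha ring 7 of 8 were marked in sg3 and 1 in V2 by this rule.

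The members left without an sg3 record were PSMA8, PSMB8, PSMB11 and PSMB6. PSMA8 is the testis form of an alpha subunit and PSMB11 the thymus form of a beta subunit, and neither had any record in its gene or within 1 kb of it in either list. PSMB8 is the interferon-induced counterpart of PSMB5, and its nearest sg3 record was 8492 bases away. PSMB6 is a standard catalytic subunit with caspase-like activity, and its nearest sg3 record was 1130 bases from an end, just outside the 1 kb window. Its nearest V2 record lay farther out, 2172 bases from an end. Inside the window, the V2 record of PSMG2 was 763 bases and the sg3 record of PSMD6 547 bases from an end. At table starts records were closer: the PSMD6 record lay 34 bases from its start, and a V2 record lay over another start of PSMG2.

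Catalytic and other beta subunits were mixed. PSMB5, which carries the chymotrypsin-like activity that proteasome inhibitor drugs block, was marked in both lists by nearly coincident records on chromosome 14, from 23034345 to 23034880 in sg3 (fold enrichment 9.24, -log10 q 36.4) and from 23034379 to 23034865 in V2 (8.20, 18.6). PSMB7, the trypsin-like subunit, had an sg3 record alone (6.18, 21.6), 83749 bases from the nearest V2 record. PSMB2, a structural beta subunit, had the strongest V2 record of all members by -log10 q (fold enrichment 8.30, -log10 q 44.9), ahead of 92.8% of gene-end V2 records. In sg3 PSMB2 had 6.40 and 40.4. PSMB1 was in both lists (8.22 in sg3 and 5.70 in V2), and PSMB3 was in sg3 alone (8.54, -log10 q 32.7) with the nearest V2 record 3342 bases away. PSMB4 counted as marked in both, yet its records differed: sg3 had a record after the start (6.25) and another before it (4.02), and V2 had only the one before it (3.59).

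The 3 immunoproteasome genes each took a different state. PSMB10, on chromosome 16, was marked in both lists, from 67935916 to 67936905 in sg3 (fold enrichment 8.20, -log10 q 43.1) and from 67936040 to 67936824 in V2 (6.18, 22.6). PSMB9 was marked in sg3 alone by a record from 32853171 to 32853780 on chromosome 6 (8.20, -log10 q 19.4). That record covers the higher-coordinate end of TAP1, the peptide transporter gene that faces PSMB9 across 488 bases, and it ends 412 bases before the start of PSMB9. PSMB8 was unmarked. PSMB8 and PSMB9 lie in the major histocompatibility region, for which the lists also hold alternate chromosome 6 contigs with 635 sg3 and 405 V2 records. No source used here says how reads shared with those contigs were placed, and its part in these values was not tested.

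All 20 regulatory particle genes were marked in sg3 (interval 83.2 to 100%) and 9 in V2 (45.0%, 23.1 to 68.5%). Over all protein-coding genes the shares were 47.2% in sg3 and 28.7% in V2, and the V2 interval contains the latter. The ATPase ring had 6 of 6 in sg3 and 3 in V2. PSMC1 led all members in sg3, with a record on chromosome 14 from 90256581 to 90257074 (fold enrichment 10.5, -log10 q 55.7) and a V2 record from 90256627 to 90257080 (7.18, 32.5). PSMC4 (9.56 in sg3, 5.54 in V2) and PSMC3 (5.00 and 3.34) were also in both. PSMC2 (5.42, -log10 q 12.01), PSMC5 (4.63, 12.3) and PSMC6 (6.17, 17.8) were in sg3 alone, and the PSMC2 record had the lowest -log10 q among the strongest records of the 40 marked members. Of the other base subunits, the scaffold gene PSMD1 was in both lists (4.18 in sg3 and 3.79 in V2). The scaffold gene PSMD2 (3.81, -log10 q 18.3) and the ubiquitin receptor gene PSMD4 (4.14, 12.9) were in sg3 alone.

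The lid had the highest share of genes marked in V2 among the classes, 5 of 8 (62.5%, interval 24.5 to 91.5%), with 8 of 8 in sg3. Over all protein-coding genes the shares were 28.7% in V2, which lies inside that interval, and 47.2% in sg3. PSMD7 (fold enrichment 8.78 in sg3 and 5.88 in V2), PSMD12 (7.58 and 4.83), PSMD3 (6.38 and 5.53) and PSMD11 (5.30 and 3.82) were marked in both lists. PSMD13 was too (8.12 and 4.56). Its sg3 record also covers all 44 bases of the gap to SIRT3, and its V2 record 3 of them. The deubiquitinase gene PSMD14 (sg3 5.20, -log10 q 13.6), PSMD6 (6.17, 19.1) and PSMD8 (4.21, 14.1) were in sg3 alone, with the nearest V2 records 63094, 96880 and 37675 bases from an end. PSMD5, PSMD9 and PSMD10 carry regulatory particle symbols but encode chaperones that assemble the base. All 3 were in sg3 alone, at 5.78, 5.69 and 7.91, with -log10 q of 27.0, 19.6 and 16.4. With 3 and 8 genes to a class, these counts describe the members and were not tested against each other.

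**Figure D2:**
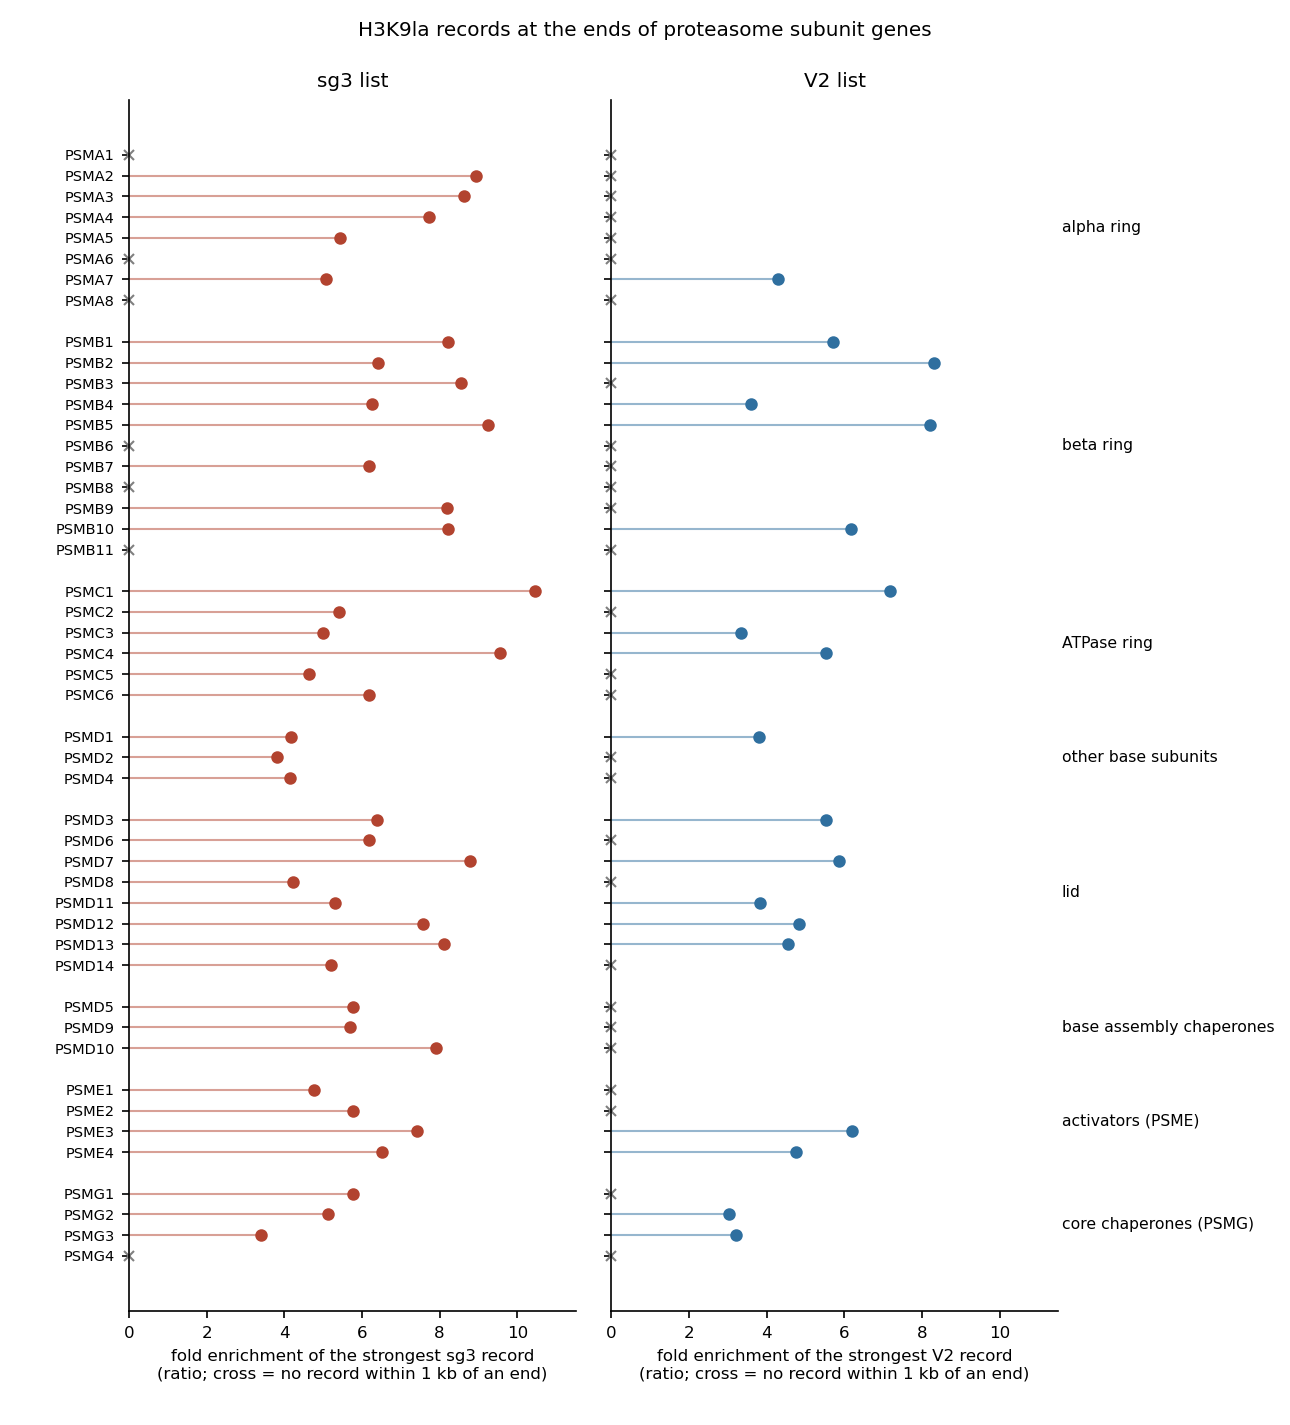
Each row is a proteasome gene, grouped by role. Points give the authors' fold enrichment (a ratio) of its strongest record within 1 kb of an end, sg3 on the left and V2 on the right, and crosses mark genes with no record. PSMC1 is highest in sg3 at 10.5 and PSMB2 highest in V2 at 8.30.

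The 4 activators split evenly. PSME1 and PSME2, which encode the partners of an interferon-induced cap and lie close together on chromosome 14, were both in sg3 alone. PSME1 had a record at 4.77 (-log10 q 15.3), and PSME2 had 4.62 (6.98) at its own start and 5.78 (26.2) farther out, on the side of RNF31, with the nearest V2 record 49441 bases from PSME1 and 41793 bases from PSME2. PSME3, the nuclear activator (7.41 in sg3 and 6.21 in V2), and PSME4, an activator linked to histone turnover (6.51 and 4.76), were in both lists. Among the PSMG chaperones, PSMG1 was in sg3 alone (5.78, -log10 q 26.2), PSMG2 was in both (5.11 and 3.04) and PSMG3 was in both, by broad weak marking (a 2715-base sg3 record at 3.40 and V2 records at 2.96 and 3.22).

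Pooled over states, marked members had sg3 records about as strong as those of all marked genes. Their strongest sg3 records had a median fold enrichment of 6.17 (range 3.40 to 10.5) and a median -log10 q of 26.2, against 5.61 and 25.7 over all 9424 marked genes. In V2 the medians were 4.83 and 17.2, against 4.74 and 18.3 over 5741 genes. The median width of the sg3 records was 568 bases, against 717 bases over all marked genes, and in V2 it was 564 bases against 570. Ribosomal protein genes had sg3 medians of 658.5 bases (cytosolic) and 521.5 bases (mitochondrial), so narrow records were not particular to the members. In V2 these medians were 535 and 507 bases.

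Strength in sg3 overlapped between members in both lists and members in sg3 alone. The 19 members in both had a median sg3 -log10 q of 36.4 (16.8 to 55.7), and the 21 in sg3 alone had 19.4 (12.01 to 39.7). Over all genes of these states the medians were 37.5 and 14.7. Median sg3 fold enrichment was 6.51 and 5.78 in members, against 6.57 and 4.50 over all genes. Members in sg3 alone thus had higher medians than all genes in sg3 alone, and this was not tested. From a -log10 q of 10 to 20, 13 of 15 members were in sg3 alone, which is 86.7% (interval 59.5 to 98.3%), against 68.3% of all genes in that range. From 20 to 30 it was 5 of 9 (55.6%, 21.2 to 86.3%) against 40.2%, and from 30 to 60 it was 3 of 16 (18.8%, 4.05 to 45.6%) against 12.7%. Each interval contains the value over all genes. Those 3 were PSMA2, PSMA4 and PSMB3. For 17 of the 21 members in sg3 alone (81.0%) no V2 record lay within 5 kb of an end, and for 14 (66.7%) none lay within 20 kb. Over all 3783 genes in sg3 alone these shares were 78.4% and 55.5%.

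Where both lists marked a member the records lay at the same place. All 21 V2 records at member ends overlapped an sg3 record (interval 83.9 to 100%), where 96.7% of all gene-end V2 records did. In the other direction 21 of 52 sg3 records overlapped a V2 record, which is 40.4% (27.0 to 54.9%), where 53.3% of all gene-end sg3 records did. The sg3 record was the wider one in 18 of 19 members, PSMB4 being the exception, with medians of 800 and 564 bases. Over all 5641 genes in both lists the sg3 record was wider in 92.3%, with medians of 965 and 574 bases. Over the 16 members with a table start marked in both, the tops of the strongest records were a median of 26 bases apart (0 to 742), the largest gap being that of PSMB4.

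The members' records lay mostly just after the transcription start. The promoter table has 1 or more starts for 41 of the 47 members (PSMA7, PSMB1, PSMB6, PSMB7, PSMD4 and PSMG3 have no entry), and distances below run from the most upstream one in the direction of the gene. Within 1 kb of a start 38 of 41 members had an sg3 record and 16 a V2 record, where 48.9% and 29.6% of 15811 protein-coding genes did. All 16 were among the 38, leaving 22 members with an sg3 start record alone, 0 with V2 alone and 3 with neither (PSMA8, PSMB8 and PSMB11). Over those 15811 genes the shares were 29.1% in both, 19.8% in sg3 alone, 0.443% in V2 alone and 50.6% in neither. The strongest sg3 record lay wholly after the start in 27 of 38 members (71.1%), across it in 8 and wholly before it in 3, which were PSMB9, PSME2 and PSMG2. Over all genes with such a record 44.7% lay wholly after the start, as did 58.2% for cytosolic and 54.8% for mitochondrial ribosomal protein genes. The first edge fell from 0 to 100 bases after the start in 23 of 38 members (60.5%), against 27.6% of all genes.

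**Figure D3:**
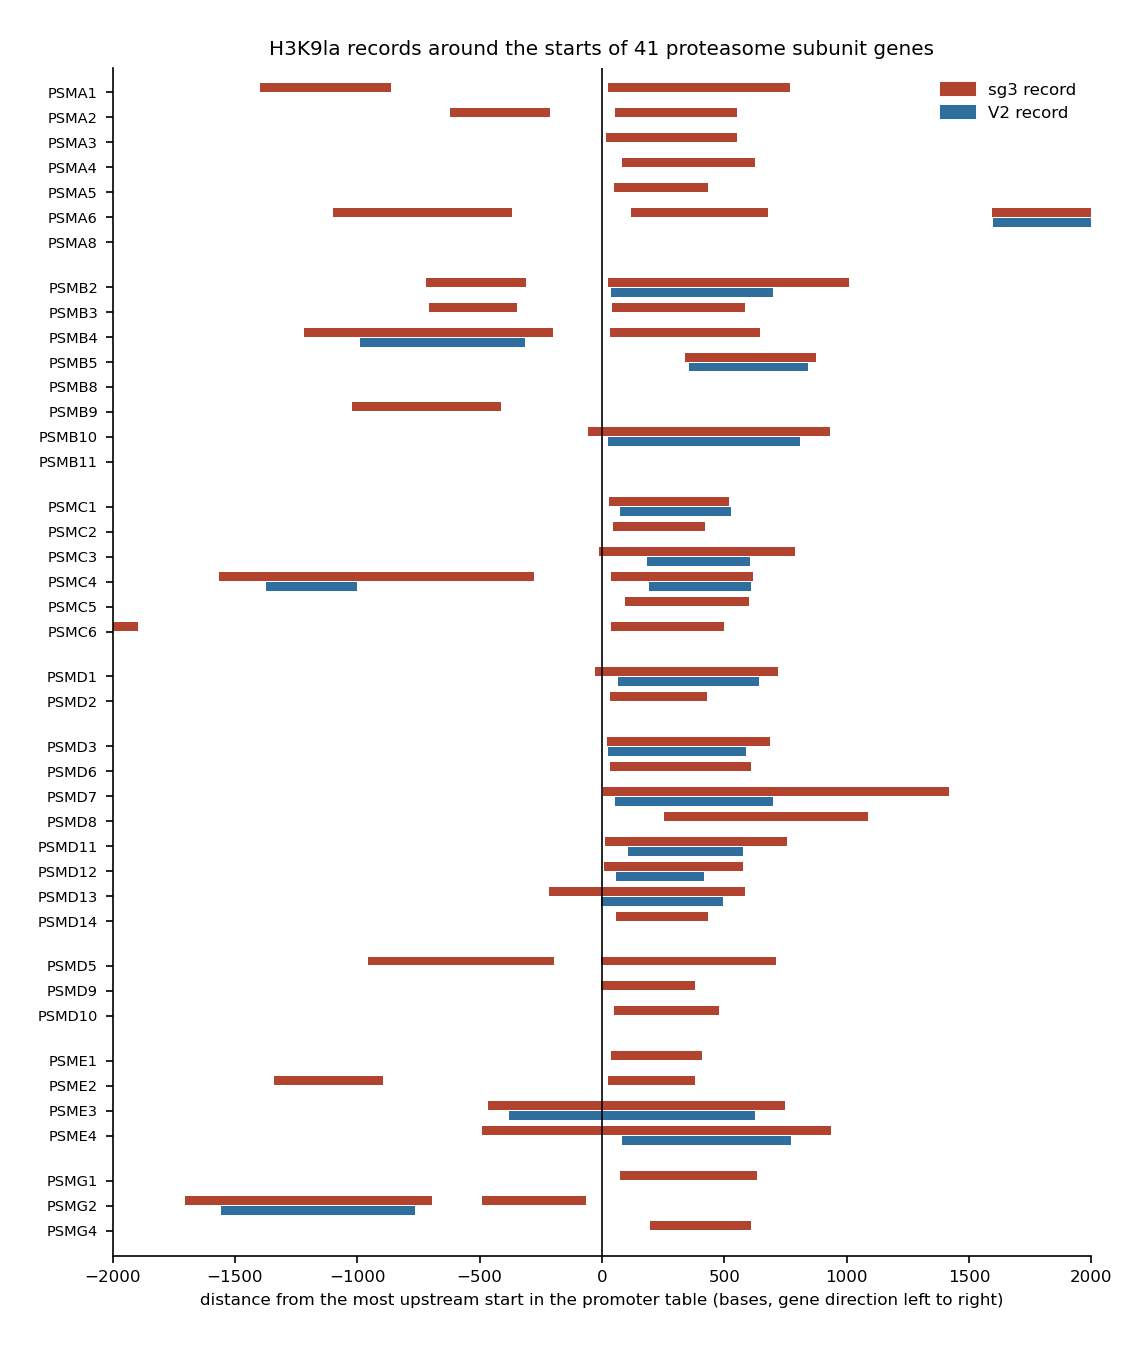
Bars show every sg3 record (red) and V2 record (blue) within 2000 bases of the most upstream table start of 41 proteasome genes, with the gene running left to right. In 27 of 38 members the strongest sg3 record begins after the start, and V2 bars, where present, lie over sg3 bars.

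The top of the strongest sg3 record was a median of 288 bases after the start (interquartile range 259 to 325), and in V2 it was 309 bases (263 to 361). In 35 of 38 members the sg3 top lay after the start, against 72.2% of all genes. In V2 it did so in 14 of 16, PSMB4 and PSMG2 being the others, against 69.6% of all genes. PSMG2 has another table start inside the gene, and records of both lists lay over that start. PSMB5 looked like an exception, with records from 340 bases on, but its next table start lies 20 bases before the sg3 record and 35 bases before the V2 record. In the 500 bases after the start sg3 records covered 75.9% of bases in members and V2 records 27.6%, and in the 500 bases before it they covered 16.5% and 2.78%. Over all protein-coding genes the values after the start were 34.2% and 16.9%, and before it 15.7% and 6.12%.

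**Figure D4:**
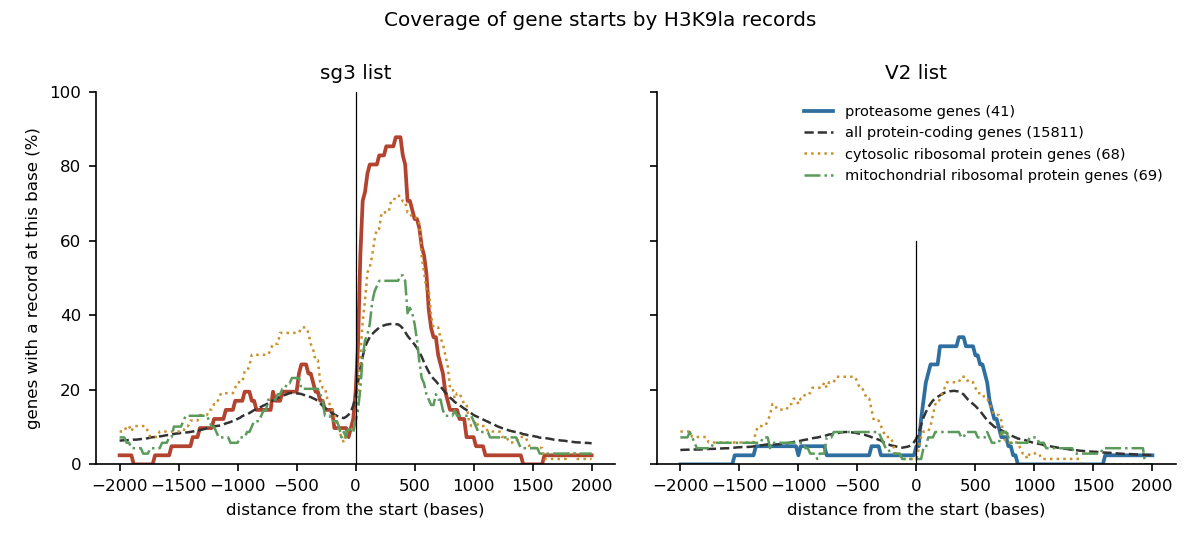
Lines give the percentage of genes with an H3K9la record at each distance from the start (bases), sg3 on the left and V2 on the right, solid for proteasome genes, dashed for all protein-coding genes and dotted or dash-dotted for cytosolic or mitochondrial ribosomal protein genes. Coverage of proteasome genes peaks at 87.8% from 340 to 380 bases in sg3 and at 34.1% from 360 to 400 bases in V2, and all protein-coding genes peak at 37.8% and 19.7%, both at 320 bases. Cytosolic ribosomal protein genes peak at 72.1% in sg3 and 23.5% in V2, and mitochondrial ones at 50.7% and 8.70%.

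The bases before the start are printed for members that show the different states, from the RefSeq promoter table of GRCh38.p14, 5′ to 3′, ending at the base before the start. Stretches stop where another protein-coding gene is annotated. Capitals mark matches, on either strand, to TGANNNNGC (antioxidant response element core, the site of the NFE2L1 and NFE2L2 factors), to CCAAT (the CCAAT box), to GGGCGG (the GC box) or to the core of the interferon-stimulated response element (GAAA, any 2 bases, GAAA). PSMC1 has the strongest sg3 record of the members, and 0 of the bases shown lie in a record of either list. PSMA4 and PSMA5 were in sg3 alone, again with 0 bases in a record. PSMB10 was in both lists, and 55 of its bases lie in the sg3 record. PSME2 and PSMB9 were in sg3 alone, and PSMB8 and PSMB11 were unmarked, with 0 bases in a record for these 4 genes. The stretch of PSMD13 is the whole 44-base gap to SIRT3, of which the sg3 record covers all 44 bases and the V2 record 3. No motif match lies in it.
PSMC1 (chr14:90256303-90256552, plus strand): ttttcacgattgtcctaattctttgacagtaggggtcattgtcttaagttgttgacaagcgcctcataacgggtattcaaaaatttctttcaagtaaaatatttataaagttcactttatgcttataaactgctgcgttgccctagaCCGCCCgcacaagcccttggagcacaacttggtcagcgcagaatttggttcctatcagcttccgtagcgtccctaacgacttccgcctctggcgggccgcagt
PSMA4 (chr15:78540155-78540404, plus strand): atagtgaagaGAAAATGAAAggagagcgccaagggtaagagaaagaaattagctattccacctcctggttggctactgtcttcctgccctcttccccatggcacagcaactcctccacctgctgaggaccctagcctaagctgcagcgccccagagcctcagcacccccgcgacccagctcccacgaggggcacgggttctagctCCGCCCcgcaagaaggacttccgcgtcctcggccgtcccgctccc
PSMA5 (chr1:109426449-109426698, minus strand): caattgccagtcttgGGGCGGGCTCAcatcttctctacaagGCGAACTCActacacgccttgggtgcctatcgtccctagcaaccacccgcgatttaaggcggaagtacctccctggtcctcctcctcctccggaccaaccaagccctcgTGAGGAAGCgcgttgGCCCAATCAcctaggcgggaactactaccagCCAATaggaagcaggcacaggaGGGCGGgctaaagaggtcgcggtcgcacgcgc
PSMB10 (chr16:67936851-67937100, minus strand): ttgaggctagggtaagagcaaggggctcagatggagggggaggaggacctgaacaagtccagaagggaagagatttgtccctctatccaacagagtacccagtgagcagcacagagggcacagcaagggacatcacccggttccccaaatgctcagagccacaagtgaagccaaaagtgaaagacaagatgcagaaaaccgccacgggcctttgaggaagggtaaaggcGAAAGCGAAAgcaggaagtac
PSME2 (chr14:24146611-24146860, minus strand): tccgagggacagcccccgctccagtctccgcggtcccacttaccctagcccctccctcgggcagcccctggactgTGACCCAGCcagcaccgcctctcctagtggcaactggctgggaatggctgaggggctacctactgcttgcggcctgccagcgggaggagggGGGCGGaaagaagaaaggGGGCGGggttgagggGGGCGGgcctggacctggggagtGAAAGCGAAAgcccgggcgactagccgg
PSMB9 (chr6:32853942-32854191, plus strand): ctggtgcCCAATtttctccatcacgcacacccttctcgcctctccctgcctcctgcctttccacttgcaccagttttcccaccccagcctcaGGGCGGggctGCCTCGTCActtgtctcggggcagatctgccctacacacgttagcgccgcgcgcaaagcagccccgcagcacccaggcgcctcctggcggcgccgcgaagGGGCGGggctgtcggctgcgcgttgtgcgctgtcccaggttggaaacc
PSMB8 (chr6:32844680-32844929, minus strand): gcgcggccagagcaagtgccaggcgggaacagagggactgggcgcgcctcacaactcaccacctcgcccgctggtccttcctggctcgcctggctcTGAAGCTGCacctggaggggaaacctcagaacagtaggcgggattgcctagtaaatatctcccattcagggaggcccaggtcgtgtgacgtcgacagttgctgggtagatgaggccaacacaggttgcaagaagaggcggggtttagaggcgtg
PSMB11 (chr14:23041962-23042211, plus strand): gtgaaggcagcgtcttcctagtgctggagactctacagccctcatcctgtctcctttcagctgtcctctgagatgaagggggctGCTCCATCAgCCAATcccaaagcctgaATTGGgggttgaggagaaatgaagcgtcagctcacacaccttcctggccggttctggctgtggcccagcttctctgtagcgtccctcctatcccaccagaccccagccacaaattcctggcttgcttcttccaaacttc
PSMD13 (chr11:236932-236975, plus strand): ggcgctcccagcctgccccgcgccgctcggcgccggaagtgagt

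Counted over 300 bases, from 250 before to 50 after the start, TGANNNNGC was found in 26 of 41 members (63.4%), where 42.7% of all promoters hold it. NFE2L1, whose product raises proteasome genes when the protease is inhibited, is the factor best known at that motif in these promoters. The interferon-stimulated response element core was found in 6 of 41 (14.6%), where 3.18% of all promoters hold it. These 6 were PSMA4, PSMB4, PSMB10, PSME1, PSME2 and PSMG4. CCAAT was found in 19 (46.3%, against 36.4%), the GC box in 28 (68.3%, against 58.3%) and the palindromic motif of nuclear respiratory factor 1 in 1, PSMA4 (against 1.77%). By state at the gene ends, TGANNNNGC was in 11 of 16 members marked in both lists, 11 of 19 in sg3 alone and 4 of 6 in neither. These shares were 68.8%, 57.9% and 66.7%, against 43.8%, 43.9% and 41.6% over all genes of the same states. CCAAT was in 6, 12 and 1 (37.5%, 63.2% and 16.7%), against 35.2%, 38.2% and 36.3%. PSMA1, PSMA6 and PSMG4, in neither list by gene ends, had an sg3 record alone within 1 kb of the start scanned. None of these genes held CCAAT. The CCAAT shares in sg3 alone and in neither thus depend on whether ends or starts set the state, and their difference was not tested. The matches are letters in a window and no binding was measured.

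The median GC content was 62.0% in members and 62.7% over all promoters, and the median number of CG pairs was 22 in each. Members in both lists had a median of 24.5 CG pairs and those in sg3 alone 21, with ranges of 7 to 37 and 7 to 39, so the states overlapped. The 6 members with a table entry and no record at a gene end had a median of 20 CG pairs and a median GC content of 60.2%. PSMA1, PSMA6 and PSMG4 among them had an sg3 record within 1 kb of the start that was measured. All genes in both lists had a median of 27 CG pairs, those in sg3 alone 25 and those in neither 14.

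A shared gene end limits which gene a record belongs to. Another protein-coding gene ends within 1 kb of an end of 19 of 47 members (40.4%), against 28.6% of all protein-coding genes. Of these 19 members, 5 were marked in both, 10 in sg3 alone, and 4 were unmarked at a gene end. PSMA1, PSMA6 and PSMG4, among the unmarked, had an sg3 record at a table start. Of the 5709 such genes among all protein-coding genes, 2097 were in both, 1541 in sg3 alone and 2039 in neither. PSMD13 and SIRT3 begin 45 bases apart on chromosome 11, and the sg3 record from 236761 to 237561 covers both ends. The V2 record from 236973 to 237469 covers the end of PSMD13 and begins just past that of SIRT3. Their tops were 259 and 139 bases into PSMD13. PSME4 and ACYP2 (120 bases), PSMD9 and HPD (179 bases) and PSMA2 and MRPL32, a mitochondrial ribosomal protein gene (202 bases), also begin close together on opposite strands. The genes of each pair had the same state. At these distances a record near the starts mostly falls within 1 kb of both genes, so the counting rule largely sets this outcome. PSMC2 begins within the far end of PMPCB, which runs on the same strand, and both were marked in sg3 alone. PSME1 lies 3 bases from EMC9, which was unmarked.

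Other genes of the pathway had a higher marked share in V2. Of 30 genes for further subunits, ubiquitin itself, shuttle factors and regulators of the proteasome, 27 were marked in sg3 (90.0%, interval 73.5 to 97.9%) and 22 in V2 (73.3%, 54.1 to 87.7%), all 22 in both lists. Over all protein-coding genes the shares were 47.2% and 28.7%, and cytosolic ribosomal protein genes had 84.7% and 51.8%. The 30 genes were picked by symbol, and RPS27A among them is also counted with the cytosolic ribosomal protein genes. The 5 in sg3 alone were UBA1, the main ubiquitin-activating enzyme gene, UBE3C, UBQLN2, UBQLN4 and UFD1. The subunit genes ADRM1 and SEM1, the core assembly factor gene POMP, the deubiquitinase genes UCHL5 and USP14, and the transcription factor genes NFE2L1 and NFE2L2 were among those in both. NGLY1, PAAF1 and PSMF1 were in neither list. The V2 interval of this list overlaps that of the members (26.4 to 55.7%) at its lower end, and the difference was not tested.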

How the data were processed

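Per the submitters' processing notes, the build was hg38 and the tools were MACS2 2.2.9.1, Bowtie2 2.5.1, SAMtools 1.18, Trim Galore 0.6.10 and FastQC 0.12.1. No source used here gives the command lines, the control library or the handling of reads with several alignments. The authors deposited 1 narrowPeak list per arm, with fold enrichment (a ratio), -log10 p and -log10 q per record. The integer score deposited by the authors was 10 times the -log10 q without decimals in 99.98% of sg3 and 99.82% of V2 records and was not used. Within a list, records did not overlap.

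Gene positions and starts came from RefSeq tables of GRCh38.p14, the build of the lists. Symbols of all members and listed genes matched. An overlap of 1 base made a record shared between lists. Each distance from a start counts the first transcribed base as 0. Shares carry exact Clopper-Pearson 95% intervals (SciPy 1.17.1). No test between arms was possible with 1 library each. The code was tested on simulated records.

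Members and lists were chosen with earlier results of these data known. Every member is accounted for. Values are given for all members in 1 list only, the 3 with the highest -log10 q of each class, PSMB5 to PSMB10, and PSMD13. Ribosomal and other pathway genes were taken by symbol, and 1 gene each of the pathway list and the list of other cells' markers is not reported here. The ranges of -log10 q, the counts at distances from starts and the choice of printed sequences were set after seeing values. Alternatives changed the window (2.5 kb, or starts only), the summit rule, the thresholds on -log10 q (5 or 10) and fold enrichment (4), list length, the distance to the other list (5 kb) and the overlap rule.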

Additional observations from a re-analysis of the deposited data

How the results depend on the processing

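Of 43 recomputed values, the 39 counts stayed within 1.5 times the main one. Members marked in sg3 numbered 38 to 41 and those marked in V2 13 to 20, the fewest at a fold enrichment of at least 4. Members in sg3 alone numbered 17 to 25, and the count in V2 alone was 0 under every alternative run. Lists of equal length gave the same 40, 19 and 21. The other 4 were medians, and all of them shifted. With all records at member ends in place of the strongest per member, the median fold enrichment was 5.76 in sg3 and 4.76 in V2, and the median width 555 and 577 bases. The V2 median width thereby passed that of sg3. Both rules for overlap gave 21 shared records. No paired analysis was possible because each arm has 1 list and no replicate numbers. Read depth is unknown, so a missing V2 record may lie below what that library could detect.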

Other observations

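Cytosolic ribosomal protein genes, marked about as often as proteasome genes in sg3, more often had their strongest V2 record before the start. Among 32 such genes with a V2 record within 1 kb of a start, the strongest lay wholly before the start in 18 (56.3%), and its top was a median of 503 bases before the start. In proteasome genes it lay before the start in 2 of 16 (12.5%), and over all 4426 genes in 26.0%. In sg3 the strongest record of ribosomal protein genes lay before the start in 17 of 55 (30.9%), with a median top 285 bases after the start. V2 coverage of these genes reached its maximum of 23.5% on both sides of the start, at 680 bases before it and again at 380 bases after it. The difference was not tested.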
